A study of Mus musculus with 4 samples.

Results

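Cytosolic ribosomal proteins were followed in lungs of the inbred mouse strain C57BL/6J, unexposed or exposed to inhaled hexamethylene diisocyanate (HDI), a reactive chemical of paints and coatings. They were taken as every probe set whose platform annotation gives 1 gene symbol of the Rpl or Rps series, including Rplp0 and Rpsa. The Rps6k kinases, which share only the prefix, were left out, and the paralog Rpl39l was set apart. This gave 48 probe sets of 34 genes, out of 10833 probe sets of 8251 genes that carry 1 symbol. Of these, 21 probe sets of 16 genes belong to the large ribosomal subunit and 27 probe sets of 18 genes to the small one. A probe set is a group of short oligonucleotide probes on the array whose signals are summarised as 1 intensity for 1 transcript.

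The study has 4 pools of whole lungs: 1 from unexposed mice and 1 each from mice 6, 18 and 90 h past exposure to aerosolised HDI at 10 mg per cubic metre. Total RNA of each pool was read on 1 array, and the unexposed pool is titled with 0 h. The labels name the strain for every pool, but no sex, age, number of mice per pool or length of exposure. With 1 array per pool there is no replicate, no test was made, and each difference describes 2 arrays, all 3 comparisons with unexposed lungs using the same one. In pooled whole lungs fewer cells of a type and less RNA per cell cannot be told apart.

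Ribosomes join amino acids into protein, and each holds 1 copy of most of its proteins, divided between a large subunit that forms the peptide bond and a small subunit that reads the messenger RNA. Messengers of ribosomal proteins are among the most abundant in growing cells. Many begin with a C followed by a run of pyrimidines, the terminal oligopyrimidine (TOP) tract, through which nutrient and growth signals set their translation by way of mTOR and the binding protein LARP1. Cells under stress often slow ribosome production.

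The start of the transcript is shown for a few of these genes, since the TOP tract is what their messengers are known to share. Sequences come from the RefSeq promoter table, build GRCm38.p6, which holds 27 of the 34 genes. Each window spans 30 bases, 15 before and 15 from the annotated start, and capitals mark the TOP pattern, a C followed by at least 4 pyrimidines, nearest the start and at most 2 bases from it. The first 5 genes have the pattern.
Rps10 (minus strand, chr17:27635230-27635259): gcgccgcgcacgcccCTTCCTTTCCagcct
Rps18 (minus strand, chr17:33955651-33955680): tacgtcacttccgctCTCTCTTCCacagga
Rps27 (minus strand, chr3:90213634-90213663): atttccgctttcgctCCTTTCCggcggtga
Rpl7a (plus strand, chr2:26910792-26910821): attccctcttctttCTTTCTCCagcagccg
Rpl38 (plus strand, chr11:114668565-114668594): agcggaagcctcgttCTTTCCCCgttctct
The next 4 do not have it within 2 bases of the start, and so have no capitals.
Rpsa (plus strand, chr9:120127751-120127780): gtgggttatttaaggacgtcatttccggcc
Rps13 (minus strand, chr7:116334176-116334205): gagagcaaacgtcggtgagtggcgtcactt
Rpl39 (minus strand, chrX:37085208-37085237): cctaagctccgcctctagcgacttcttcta
Rpl39l (plus strand, chr16:10170213-10170242): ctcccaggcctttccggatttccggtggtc

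Within 2 bases of an annotated start the pattern was found in 9 of the 27 genes (33.3%), against 11.8% of 6576 named genes on the array that are in the table. Exactly at the start it was found in 5 of 27, or 18.5%, against 2.95%. Annotated starts can lie some bases away from the start used in a tissue, so a gene without a match may still carry the tract. The letters CGGAAG, the core of sites bound by ETS factors, stood on either strand in the 300 bases around the start of 18 of 27 genes (66.7%), against 29.7% of the named genes. The letters TATAAA were in the 50 bases before the start of 0 of 27 genes, against 4.14%. CGGAAG can share its first C with the end of a pyrimidine run, and its reverse complement can share its first 5 letters with one, so the motif counts are not separate. These matches describe the letters only.

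Intensities were scaled so that the arrays agree in their trimmed mean, and values under 77.7 units, the 40th percentile of all scaled values, were set to that floor. Of the 48 ribosomal protein probe sets, 28 lay above the floor on all 4 arrays, 7 on some and 13 on none. A total of 22 probe sets, of 21 genes, belonged to the brightest 10% of named probe sets, with intensities from 403 to 6049. The 13 dim ones read 9.07 to 70.5 units. For 6 genes every probe set was dim: Rpl32, Rpl35a, Rpl39, Rpl7l1, Rps14 and Rps20. Nothing can be said of these 6. Rps4x, a small subunit gene on the X chromosome, had 1 bright probe set, 3 under the floor everywhere and 1 above it at 90 h alone.

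At 6 h the ribosomal proteins were lower than in unexposed lungs by a small amount. The median log2 difference over the 34 probe sets that could be compared was -0.20, against -0.033 over 7140 named probe sets. A total of 31 of 34 were lower, where 54% of all named probe sets were lower. All 22 in the brightest 10% were lower, by log2 differences from -0.51 to -0.030. Their median was -0.20, or 1.15-fold, while the other 1062 probe sets of the brightest 10% had a median of -0.044. Among the 202 other probe sets with a mean of at least 1000 units it was -0.057. The summed intensity of the 22 was 57534, 50062, 56860 and 55288 in the unexposed, 6, 18 and 90 h pools, so the 6 h pool was 13.0% below the unexposed one, and the 18 and 90 h pools 1.17% and 3.90% below. The same sum over the other 1062 probe sets was 1.33% above the unexposed pool at 6 h. The scaling sets all arrays to the same trimmed mean, so it partly holds that sum even.

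In the bright probe sets the differences were also close together. The robust SD of the log2 difference at 6 h was 0.093 over the 22 bright ribosomal protein probe sets and 0.32 over the other 1062. The 12 compared members outside the brightest 10% were spread more widely, with a robust SD of 0.356, a median of -0.12 and values from -1.26 to 0.21, 9 of them lower. Over all named probe sets the robust SD was 0.338. A single value of -0.20 is smaller than the robust SD of 0.25 by which probe sets of 1 gene disagreed at 6 h, over 676 genes with more than 1 probe set above the floor on all arrays. Of the 22, only Rps10, Rpsa, Rps13, Rpl7, Rps3, Rps3a1 and the unmarked probe set of Rps28 differed by more than that, all of them lower. Within ribosomal protein genes the robust SD between probe sets of 1 gene was 0.044 at 6 h. It rests on only 8 probe sets of 4 genes and leaves out those under the floor on any array.

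**Figure D1:**
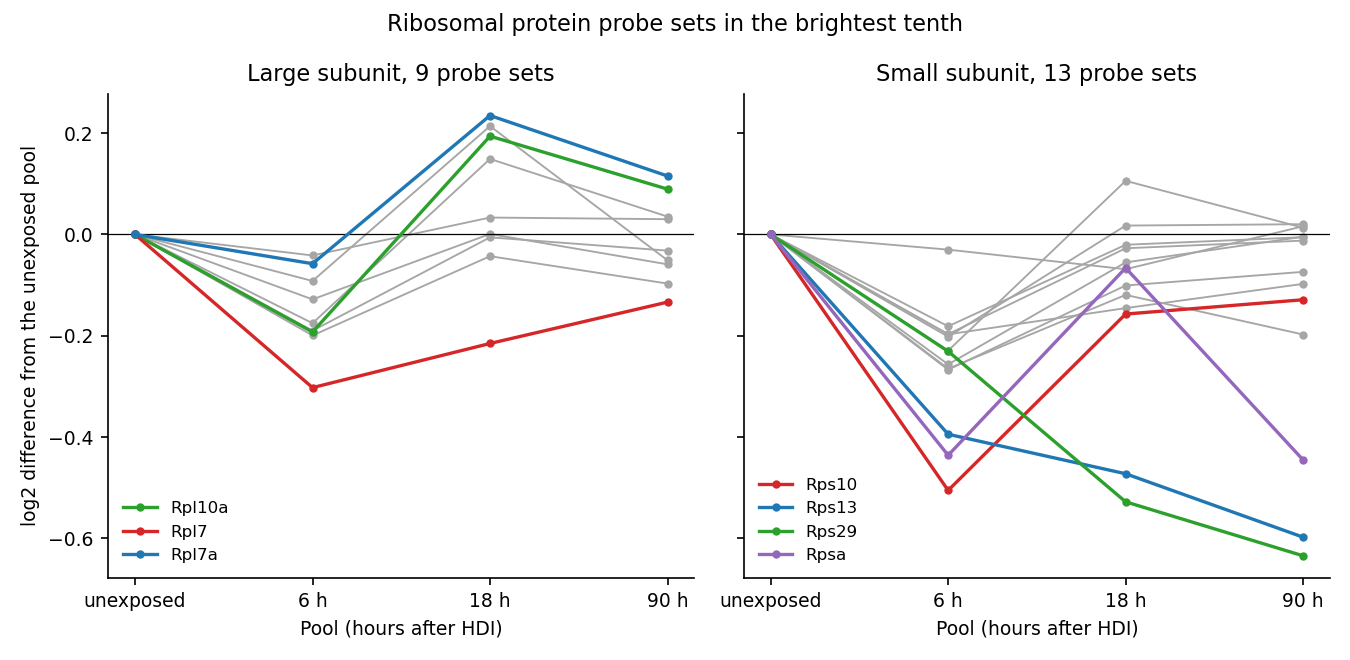
Log2 difference from the unexposed pool (vertical axis) in the 4 pools (horizontal axis) for the 22 ribosomal protein probe sets of the brightest 10%, 9 of the large subunit on the left and 13 of the small subunit on the right; each line is 1 probe set and coloured lines are named. All 22 lie below 0 at 6 h, between -0.51 and -0.030. At 18 h they lie on both sides of 0, from -0.53 to 0.23 with a median of -0.035, and Rps29 and Rps13 are the lowest.

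In the large subunit the 6 h value was the lowest of the 4 pools for all bright members. Rplp0, the base of the stalk that recruits translation factors, read 3437 unexposed, 3043 at 6 h, 3811 at 18 h and 3521 at 90 h. Its log2 differences from the unexposed pool were -0.18, 0.15 and 0.035. The 6 h pool was thus the low one and the 18 h pool the high one. Rpl8, a protein near the peptide-forming centre, read 2317, 2031, 2308 and 2266 in the same order, with only the 6 h pool apart from the rest. Rpl6 was alike, at 2402, 2092, 2331 and 2246. Rpl7 had the largest decrement of the bright large subunit members, at 2052, 1664, 1768 and 1871, a log2 difference of -0.30 at 6 h. All 3 exposed pools lay below the unexposed one. The second probe set of Rpl7 was above the floor at 6 h alone and read 89.8 there.

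Rpl7a and the bright probe set of Rpl19 were higher at 18 h than in the unexposed pool. Rpl7a read 2140, 2056, 2518 and 2318, with log2 differences of -0.058, 0.23 and 0.12. Rpl19 read 2747, 2577, 3186 and 2651 by its bright probe set and 143, 136, 107 and 109 by its dim one, so the probe sets of Rpl19 disagreed on the 18 h pool. Rpl10a had both probe sets above the floor: 885, 774, 1012 and 942 by one, and 391, 347, 420 and 438 by the other. In each the 6 h pool was the lowest. Rpl41, the shortest ribosomal protein, read 6045, 5531, 6049 and 5803, and Rpl37a 1993, 1937, 2040 and 2035, the least uneven of the large subunit.

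Small subunit members showed the larger differences at 6 h. Rps10, a protein of the head of the small subunit, read 2695 unexposed, 1899 at 6 h, 2417 at 18 h and 2465 at 90 h. It was 1.42-fold lower at 6 h, the largest difference among bright members. Rpsa, also known as a laminin-binding protein of the cell surface, read 1671, 1235, 1596 and 1227. It was 1.35-fold lower at 6 h and 1.36-fold lower at 90 h, with the 18 h pool close to the unexposed one. Rps3, which lines the messenger entry channel and also acts in DNA repair, read 2649, 2202, 2471 and 2517. Rps3a1 read 3145, 2617, 2895 and 2742. In both all exposed pools were below the unexposed one and the 6 h pool was the lowest.

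Further bright small subunit members had 6 h values between the extremes. Rps18 read 2596, 2214, 2793 and 2620, Rps19 2844, 2508, 2804 and 2833, and Rps7 2121, 1844, 2147 and 2151. Rps19 is the gene most often mutated in Diamond-Blackfan anaemia, a failure of red cell production. Rps24 read 4030, 3515, 3643 and 3766 by its bright probe set, which is marked r. In Rps18, Rps19, Rps7 and Rps24 the 6 h pool was the lowest. Rps4x was the most even, at 2457, 2407, 2343 and 2485, with no pool apart. Over the small subunit the median log2 difference at 6 h was -0.23 in 19 probe sets, and over the large subunit -0.17 in 15. The ranges of both subunits overlapped and the difference between them was not tested.

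At least 1.5-fold lower at 6 h were 2 of 34 ribosomal protein probe sets, against 5.98% of all named ones. One of these, of Rps28, was also at least 2-fold lower, against a background of 1.48%. Rpl13a, known for silencing inflammatory messengers when released from the ribosome, read 122 unexposed and 76.4 at 6 h, which is under the floor, so it was at least 1.57-fold lower. It read 124 and 166 at 18 and 90 h. None was at least 1.5-fold higher. Rpl22, known also as a partner of a viral small RNA, read 107, 81.0, 76.4 and 112, so it was low at 6 h, under the floor at 18 h and back at 90 h, and its other probe set was under the floor on all arrays. Few members were level or higher at 6 h. The dim probe set of Rps27 was 0.12 log2 units higher. A bright one annotated with Rps27 and another symbol, and so not counted, read 3244, 2608, 2750 and 2604, lower in all exposed pools. Rps4l, a paralog of Rps4x, read 130, 130, 149 and 121 by a probe set marked s. Rpl38 by a probe set marked r, and the dim probe set of Rpl7, cleared the floor at 6 h but not in the unexposed pool. Rpl38 read 48.3, 84.6, 90.5 and 97.7.

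Rps28 shows how far probe sets of 1 gene can part. Its unmarked probe set read 3532, 2956, 3399 and 3520, and a marked one 4537, 3958, 4452 and 4498. A mark is a letter in the probe set name that flags possible cross-hybridisation or dropped design rules. The third, marked r, read 186, 76.2, 99.3 and 80.6, at least 2.39-fold lower at 6 h and 2.31-fold lower at 90 h. Under a floor set at the 60th percentile both log2 differences were -0.43, past neither 1.5-fold nor 2-fold. The 2 bright ones had log2 differences of -0.26 and -0.20 at 6 h and near 0 at 90 h, so the 2-fold difference rests on the dim probe set alone. Among all named probe sets marked r, 6.39% of 360 were at least 2-fold lower at 6 h, against 1.18% of 5848 unmarked ones. The part of the mark in the Rps28 value was not tested.

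Ribosomal protein probe sets that carry several symbols, mostly a gene and its pseudogenes, were not counted but could be set beside the others. There were 39 of them, naming 34 genes, and 35 could be compared at 6 h. Their median log2 difference was -0.19, with 33 of 35 lower, where 54% of all named probe sets were lower. Rps6, the target of the S6 kinases, read 3472, 3096, 3338 and 3201 in the 4 pools by such a probe set. Rplp1, a stalk protein, read 3687, 3305, 3465 and 3339. In both the 6 h pool was the lowest, as it was in 23 of the 33 above the floor on all arrays. Among all named probe sets above the floor on all arrays that share was 28.4%. They are read on the same 4 arrays, so they share whatever is particular to these arrays.

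Over the 28 ribosomal protein probe sets above the floor on all 4 arrays, the 6 h pool was the lowest of the 4 in 20, where 28.4% of all named probe sets had their lowest value there. The unexposed pool was the highest in 15 of 28, against 27.8%. The 6 h pool was the highest in 0 of 28, against 25.5%, and the unexposed pool the lowest in 0, against 26.2%. These 28 exclude dim probe sets by construction. Across them the log2 difference had a Pearson correlation with the mean log2 intensity of -0.14 at 6 h, 0.25 at 18 h and 0.35 at 90 h. These values share the arrays and describe 28 probe sets.

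**Figure D2:**
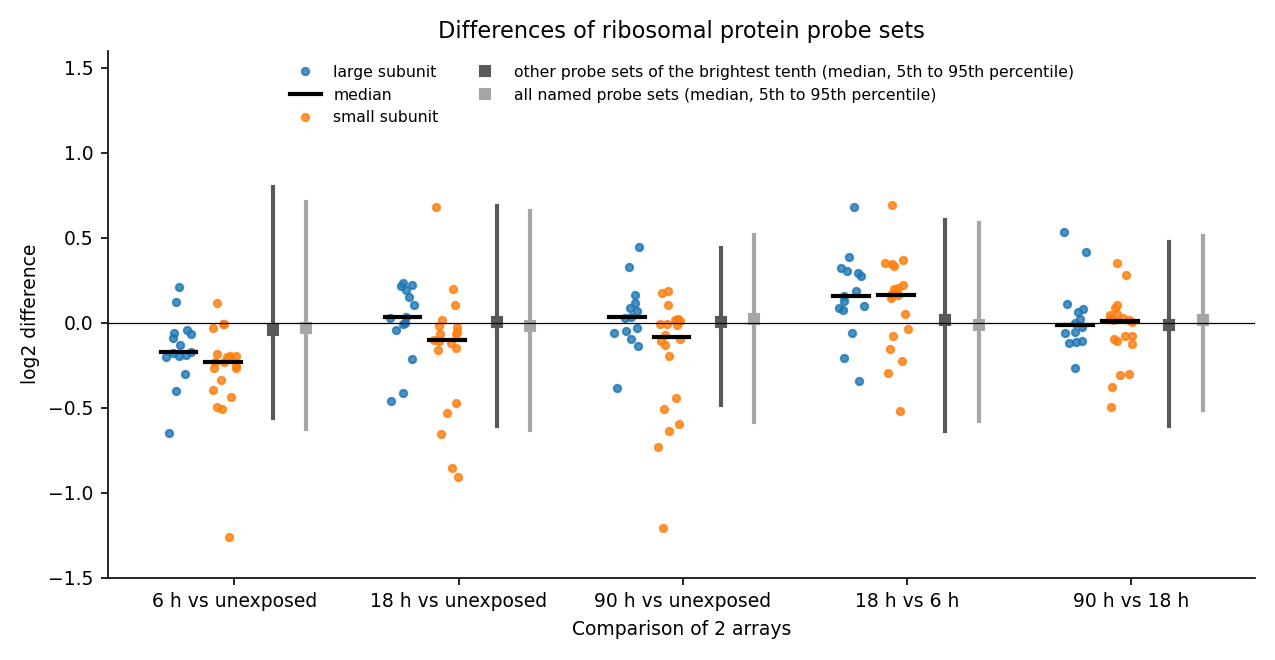
Log2 differences (vertical axis) of ribosomal protein probe sets in 5 comparisons of 2 arrays (horizontal axis); each point is 1 probe set, blue for the large and orange for the small subunit, black bars are medians, and grey squares with lines give the median and the 5th to 95th percentile of the other probe sets in the brightest 10% and of all named ones. At 6 h against unexposed both subunits' points lie mostly below 0, with medians of -0.17 and -0.23, and at 18 h against 6 h mostly above 0.

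From 6 to 18 h the ribosomal proteins moved back. The median log2 difference of the 18 h pool from the 6 h pool was 0.16 in 34 probe sets, against -0.014 over all named ones, and 25 of 34 were higher, where 48.2% of all were. In the brightest 10% 19 of 22 were higher. At least 1.5-fold higher were 2 of 34, Rpl13a and Rps27l, against 5.11%. Against unexposed lungs the 18 h median was -0.043 in 33 probe sets, and 20 of 33 were lower, where 52.1% of all were. The sign at 18 h turns with deposited values left unscaled, where the median was 0.10 while that of all named probe sets was 0.12.

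Only a few members were apart from the unexposed pool at 18 h. At least 1.5-fold higher was 1 of 33, against 6.73%, and at least 1.5-fold lower were 3, against 6.1%. The higher one was Rps27l, a paralog of Rps27 that is induced by p53. It read 298 unexposed, 297 at 6 h, 479 at 18 h and 339 at 90 h, 1.61-fold higher at 18 h, by a probe set marked r. The 18 h pool alone was high. Rps27 itself read 141, 153, 131 and 160 by the probe set with 1 symbol. The 3 lower ones were Rps28 by the probe set marked r, Rps15 and the dimmer probe set of Rps29. Rps15, a protein near the decoding centre, read 141, 112, 69.7 and 99.1, so it was under the floor at 18 h and at least 1.81-fold lower. Under a floor set at the 60th percentile its log2 difference was -0.030.

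**Figure D3:**
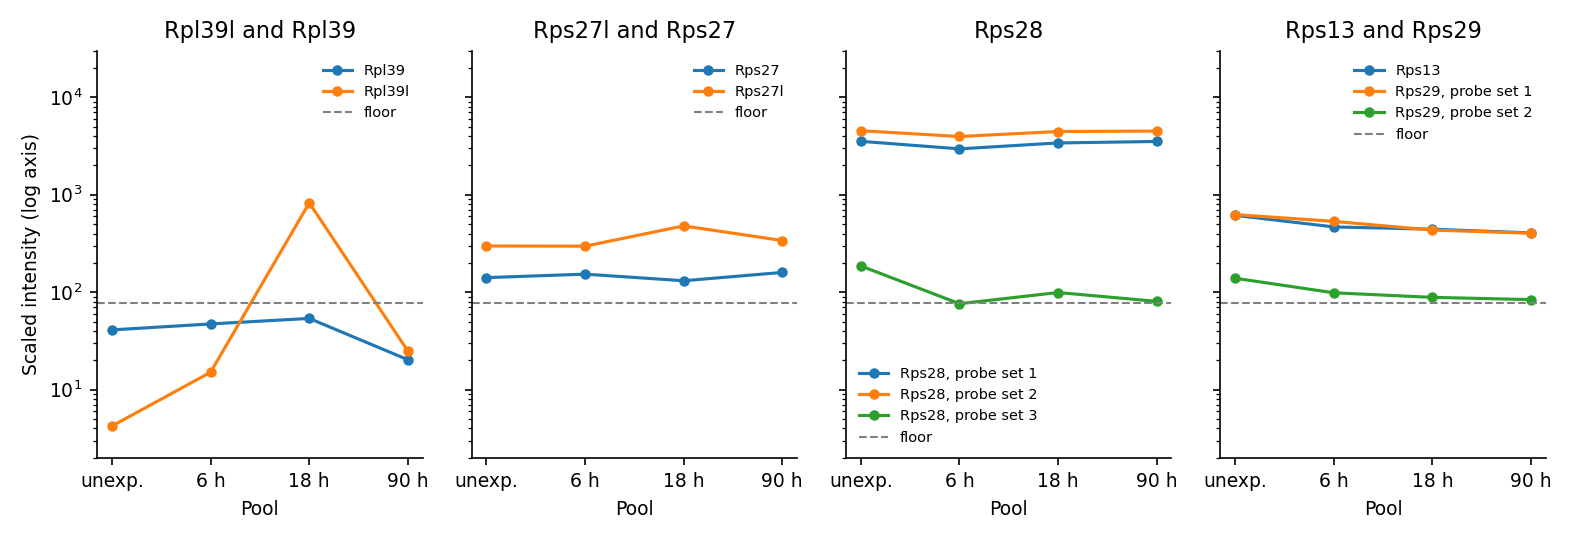
Scaled intensity on a log axis (vertical) in the 4 pools (horizontal) for Rpl39l with Rpl39, Rps27l with Rps27, the 3 Rps28 probe sets, and Rps13 with both Rps29 probe sets; the dashed line is the floor of 77.7. Rpl39l is far above the floor only at 18 h (826), and the Rps28 probe set marked r (probe set 3) is highest in the unexposed pool (186).

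Rps29 and Rps13 were lower in all 3 exposed pools and lowest at 90 h. Rps29, a small zinc-binding protein, read 626 unexposed, 533 at 6 h, 434 at 18 h and 403 at 90 h by its brighter probe set. Its log2 differences were -0.23, -0.53 and -0.63. The dimmer probe set read 139, 98.6, 88.5 and 84.0, with log2 differences of -0.50, -0.65 and -0.73, so both gave the same order of pools. Under a floor set at the 60th percentile the dimmer one was at -0.014. Rps13 read 615, 468, 443 and 406 by a probe set marked r and was 1.51-fold lower at 90 h.

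At 90 h the median log2 difference from unexposed lungs was -0.022 in 34 probe sets, against 0.023 over all named ones. A total of 20 of 34 were lower, where 46.7% of all were. At least 1.5-fold lower were 4 of 34, against 4.89%: Rps13, both probe sets of Rps29 and the Rps28 probe set marked r. The last was also the only one at least 2-fold lower, against 0.949%. None was 1.5-fold higher. From 18 to 90 h the median was -0.00029, and 17 of 34 were higher, where 52.7% of all were. Rpsa was lower again at 90 h, at 1227 against 1596 at 18 h. The 90 h sign turned with cyclic loess, at 0.038, and with unscaled values, at 0.12, where the median of all named probe sets was 0.16.

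Rpl39l stands apart from all these genes. It is a paralog of the X-linked gene Rpl39 and is known for its abundance in male germ cells, where it takes the place of Rpl39. It read 4.24 units in the unexposed pool, 15.1 at 6 h, 826 at 18 h and 24.9 at 90 h. The 18 h pool was the only one above the floor, and it was at least 10.6-fold above the unexposed pool. This bound depends on the floor: on the log2 scale it is 3.41 as given, 2.58 under a floor set at the 60th percentile and 4.17 at the 25th. Among 7127 named probe sets compared at 18 h this was the largest difference, the next being 6.70-fold. Rpl39 read 41.1, 47.3, 53.9 and 20.3, under the floor throughout, so the probe sets of this pair cannot be set against each other.

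Neighbours in the genome and germ cell markers were read beside Rpl39l. The nearest named genes with a probe set on both sides of Rpl39l were Usp7, 1810013L24Rik and Grin2a, and Emp2, Nubp1 and Ciita. Emp2, an epithelial membrane protein, read 1290, 1365, 1249 and 1175. Nubp1 read 85.8, 77.1, 116 and 84.7, and the brighter probe set of Usp7 204, 347, 280 and 245. Of 9 probe sets for 7 genes of testis germ cells, 5 were under the floor on all arrays, among them both of Prm2 and those of Pgk2 and Ldhc. The summed level of the 9 was 812, 702, 871 and 746 in the 4 pools, with none at 0. From 6 to 18 h 2 of the 3 compared were at least 1.5-fold higher, against 5.11% of all named probe sets. At 18 h against unexposed lungs their median log2 difference was -0.026 in 4 probe sets. Of these 2 were higher, against 47.9%, and 2 were lower, against 52.1%, the lowest at -0.40. At least 1.5-fold higher was 1 of 4, against 6.73%. Tnp2, a transition protein of sperm chromatin, read 217, 188, 327 and 240. The part of germ cell RNA in the Rpl39l value was not tested. With 1 array at 18 h, a value of this pool cannot be told apart from a value of that array.

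Other genes of translation did not share one pattern. The elongation factors and further genes with TOP messengers, 16 genes on the array, had a median log2 difference of -0.14 at 6 h in 14 probe sets. The median of all named probe sets was -0.033. In the list 11 of 14 were lower, against 54% of all named ones. Eef1a1, which brings transfer RNA to the ribosome, read 5064, 4568, 4588 and 4458, so all exposed pools were below the unexposed one. Tpt1 read 5146, 5070, 4835 and 4887. Eef1b2 was the only member past 2-fold at 6 h, at 215, 86.9, 108 and 81.1 by a probe set marked r, like that of Rps28. At the other end Eif3e and Hnrnpa1 had log2 differences of 0.65.

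Initiation factors, which load the small subunit onto messengers, had a median of 0.26 at 6 h in 35 probe sets, 22 of them higher, against 46% of all named probe sets. At least 2-fold higher were 3, against 2.31%, and none was 2-fold lower. Eif1a read 105, 281, 171 and 113 by one probe set and 103, 268, 199 and 113 by the other, so both gave the same order of pools. Eif3j1 read 162, 329, 225 and 159. Eif4a2, a helicase, was the lowest, at 1043, 722, 942 and 1088. At 18 h the list's median was 0.25, with 27 of 35 higher, against 47.9%, and at 90 h 0.077.

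Genes of ribosome assembly had a median of 0.10 at 6 h in 41 probe sets and 0.18 at 18 h in 47, with 38 of 47 higher, against the same 47.9%. Nhp2, a protein of the particles that modify ribosomal RNA, read 123, 187, 278 and 168 and was 2.27-fold higher at 18 h. Fbl, the methyltransferase fibrillarin, read 178, 212, 350 and 227, and Ncl, nucleolin, 847, 1148, 1474 and 1152. In all 3 the 18 h pool was the highest. From 18 to 90 h 39 of 46 were lower, against 47.3%, with a median of -0.21. Bop1 was the lowest at 6 h by 1 probe set, at -0.55.

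Mitochondrial ribosomal proteins, which serve the separate ribosome of mitochondria, had a median of -0.12 at 6 h in 53 probe sets. Of these 34 were lower, where 54% of all named probe sets were. At 18 h the median was 0.23 in 57, with 42 higher, against 47.9%. From 6 to 18 h their median was 0.35, against 0.16 in the cytosolic ones. In that comparison 47 of 56 were higher, where 48.2% of all named probe sets were. Mrpl50 was at least 2.34-fold lower at 6 h, where its probe set is listed at 0, between 182 unexposed and 183 at 18 h. Mrpl36, at 157, 37.9, 63.2 and 63.6, was at least 2.03-fold lower in each exposed pool, and its other probe set, marked r, was above the floor at 90 h alone. Mrpl16 was the highest at 6 h, at 0.69.

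Among S6 kinases and genes of the mTOR pathway, the median was 0.069 at 6 h in 16 probe sets. The 2 at least 2-fold higher, against 2.31% of all named probe sets, were Ddit4, an inhibitor of mTOR complex activity, at 106, 401, 175 and 135, and the stress gene Sesn1, which restrains the same kinase, at 162, 427, 136 and 159. In both the 6 h pool was the highest, and Ddit4 was also 1.66-fold higher at 18 h. Tsc2 was the lowest, at -0.66 by 1 of its 3 probe sets, with the others at -0.080 and 0.21. Of the S6 kinases Rps6kb2 read 213, 248, 210 and 217, and Rps6ka3 and Rps6kc1 were under the floor.

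**Figure D4:**
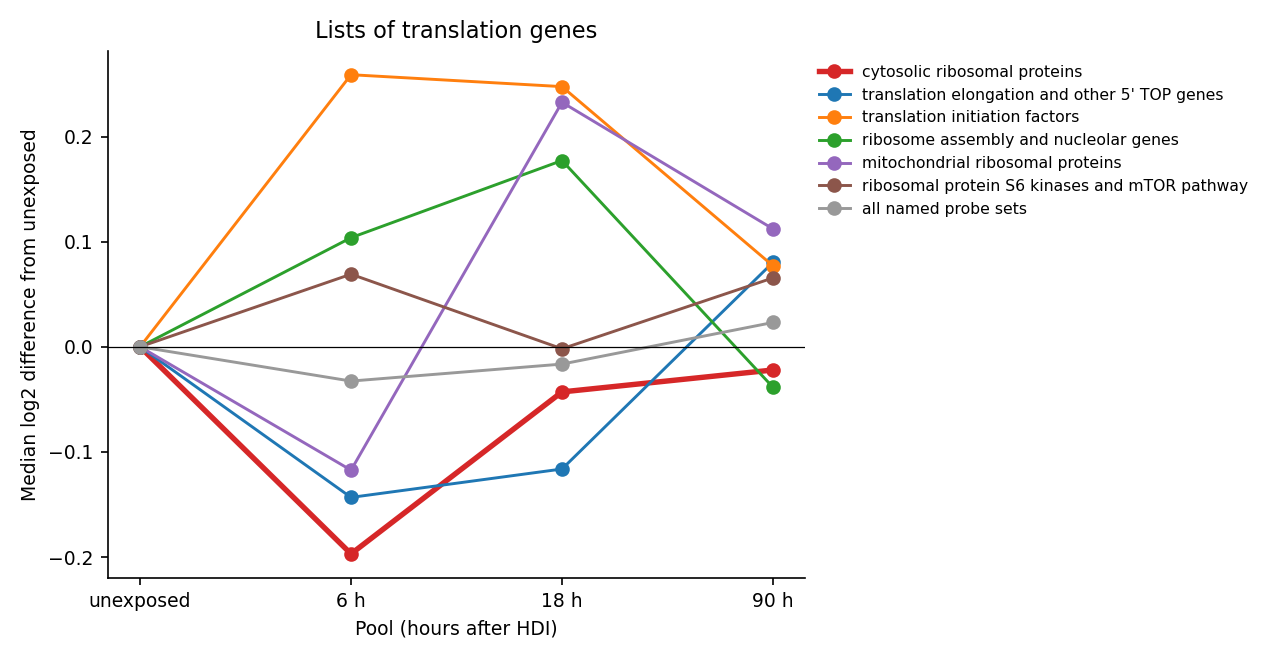
Median log2 difference from the unexposed pool (vertical axis) in the 4 pools (horizontal axis) for cytosolic ribosomal proteins, 5 other lists of translation genes and all named probe sets; each point is the median over the probe sets that could be compared. At 6 h the cytosolic ribosomal proteins are lowest (-0.20) and the initiation factors highest (0.26).

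Several facts of the arrays are given beside the 6 h values, though not all of them had their lowest value at 6 h. B cell markers summed to 3213, 1822, 2212 and 2268 in the 4 pools over 22 probe sets of 6 genes. Of these 12 were under the floor on all arrays. At 6 h 9 of 10 compared were lower, where 54% of all named probe sets were. T and NK cell markers summed to 657, 383, 328 and 508 over 8 probe sets, and macrophage markers to 3762, 2960, 2980 and 4228 over 12. In each list 5 probe sets were under the floor on all arrays, and at 6 h only 3 and 5 could be compared. Probe sets listed at 0 on an array were 1 of Ighm, 1 of Cd3d, and those of Adgre1 and Msr1. From 6 to 18 h the B cell markers had a median log2 difference of 0.48, with 7 of 9 higher, against 48.2% of all named probe sets. Markers of immature T cells of the thymus summed to 3346, 2315, 2115 and 2376 over 9 probe sets, 3 of them under the floor on all arrays. Most of this sum came from a probe set of Rag1 marked r, at 2625, 1571, 1518 and 1671. The other of Rag1 is listed at 0 at 90 h. Markers of heart and skeletal muscle summed to 5793, 5412, 5123 and 4318 over 11 probe sets. At 6 h 8 of 11 were lower, against 54% of all named probe sets, and at 18 h 7 of 10, against 52.1%. Unlike most of that list, Acta1, the actin of skeletal muscle, read 7.25, 611, 392 and 1.69, above the floor at 6 and 18 h only. Markers of the labelled tissue, alveolar type II and club cells, were above the floor in 4 of 5 probe sets and summed to 27864, 25076, 24329 and 23682. Lung endothelium markers summed to 5361, 5136, 4994 and 4937, and those of dividing cells to 774, 720, 710 and 2006. Sums of 2 lists were not lower at 6 h than unexposed: red cells, at 11400, 12034, 10917 and 8868, and neutrophils, at 1200, 1203, 987 and 1377. By probe set, 2 of 5 of red cells and 5 of 7 of neutrophils were lower at 6 h, against 54%. The 3' to 5' signal ratio of beta-actin, a sign of RNA integrity, was 1.5, 1.30, 1.36 and 1.55, and that of Gapdh 1.21, 1.16, 1.12 and 1.22. Over 9 probe sets for spiked-in control transcripts, left out of the scaling, the median log2 differences were -0.11, 0.14 and 0.36 at 6, 18 and 90 h. The part of these in the ribosomal protein differences was not tested.

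The direction at 6 h held under every scaling tried. With deposited values unscaled the median was -0.085 while that of all named probe sets was 0.072, and with cyclic loess they were -0.15 and -0.017. With the scale taken without any ribosomal protein probe set the median was -0.20. Over the scalings, floors and ways of combining probe sets the ribosomal proteins differed from the median of all named probe sets by -0.13 to -0.17.

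**Figure D5:**
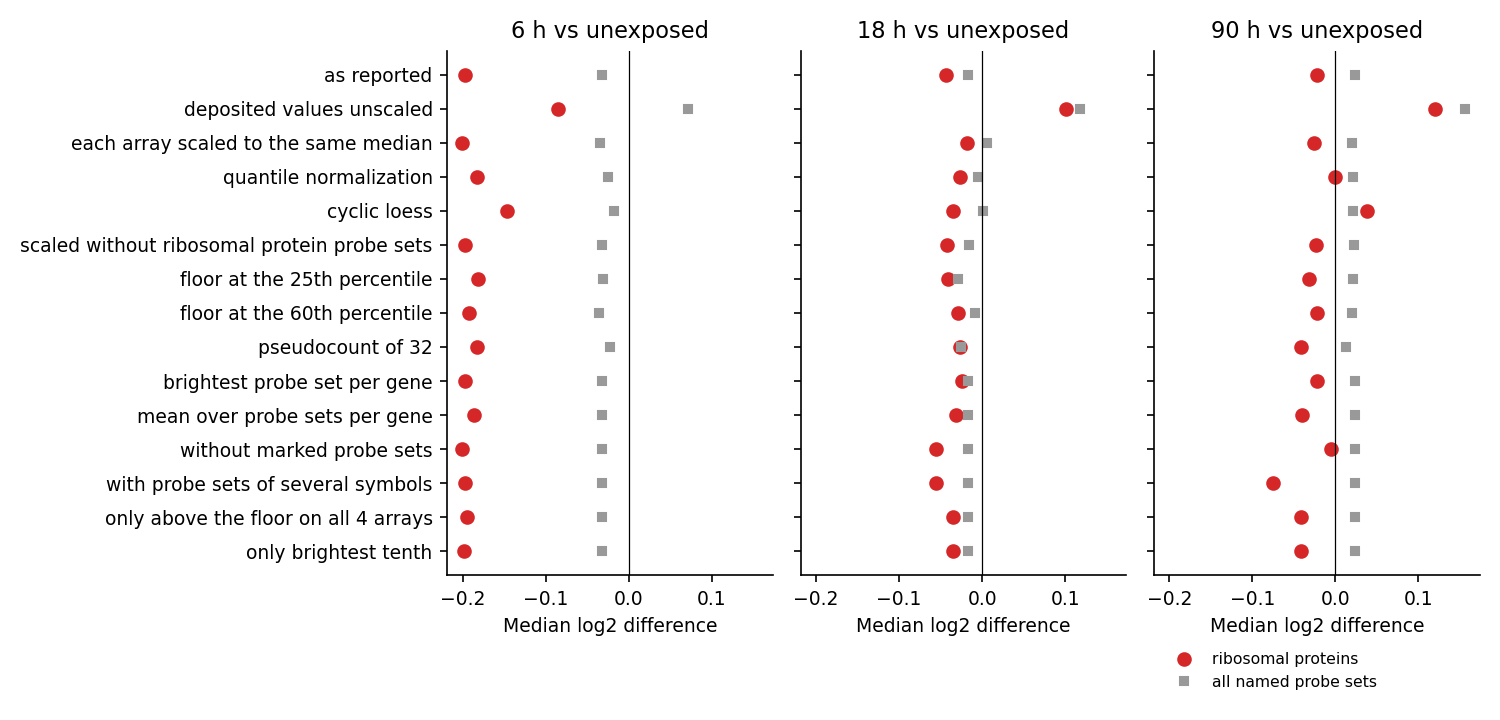
Median log2 difference from the unexposed pool (horizontal axis) of ribosomal protein probe sets (red circles) and of all named probe sets (grey squares) under the reported settings and 14 alternatives (vertical axis), for 6, 18 and 90 h. At 6 h the red circles lie left of 0 and of the squares in every line, and at 18 and 90 h unscaled values move both to the right.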

How the data were processed

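The authors deposited 1 linear intensity per probe set and array. How they corrected background and scaled before deposit is not given in the sources used here. Of 12488 rows 66 were controls, while 10833 had 1 symbol in the platform annotation; an update by gene identifier altered 0 of these. Leaving out controls, each array was scaled to a common mean after trimming 2% at each end (factors 1.07, 0.992, 0.970 and 0.972), values under the 40th percentile were raised to it, and log2 was taken. A probe set under the floor on both arrays was not compared, and one under it on 1 array gives a bound. The brightest 10% were ranked by the mean over arrays. With 1 array per group no test was made, and the number of arrays limits the precision. Robust SD is the scaled median absolute deviation. Python 3.11.15 and limma 3.58.1 (R 4.3.3, cyclic loess alternative) were used, and the code was tested on simulated shifts. Alternatives changed the scaling, the floor, the pseudocount, how probe sets were combined and which were kept.

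The members, lists and thresholds of 1.5-fold and 2-fold were chosen with earlier results of these data known. The rule named members at least 2-fold away, the 4 highest and 4 lowest per comparison with unexposed lungs that cleared the floor on both arrays, genes whose probe sets differ by over 1 log2 unit, and Rpl39l, Rpl39, Rplp0, Rplp1, Rplp2, Rpsa and Rps6. Rplp2 had no probe set among those used. Of each other list it named members at least 2-fold away, or else the highest and lowest. Further genes were chosen after their values were seen.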

Additional observations from a re-analysis of the deposited data

How the results depend on the processing

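Results were recomputed under 14 alternatives, 3 of which were chosen after seeing the data (adding probe sets with several symbols, and keeping only members above the floor on all arrays or only the brightest 10%). The 6 h median lay between -0.20 and -0.085, below 0 in all 14, and moved by more than 0.1 only with unscaled values, to -0.085. The 18 h and 90 h medians changed sign with unscaled values, to 0.10 and 0.12, which put the median of all named probe sets at 0.12 and 0.16. The 90 h median was 0 with quantile normalization and 0.038 with cyclic loess. The median of 90 h against 18 h, reported as -0.00029, was 0.0062 with quantile normalization and 0.022 with cyclic loess. The cause of these changes was not tested. The median of 18 h against 6 h kept its sign and stayed within 0.1. Counts at least 1.5-fold lower ranged from 0 to 3 at 6 h (reported 2), from 0 to 4 at 18 h (reported 3) and from 2 to 5 at 90 h (reported 4). These counts are over unlike numbers of probe sets. The highest came with probe sets of several symbols added, where 69, 69 and 68 were compared. The counts of 0 came from alternatives that compared 22 to 30. Counts at least 1.5-fold higher ranged from 0 to 2 both at 18 h (reported 1) and at 18 h against 6 h (reported 2), and from 0 to 1 at 6 and at 90 h (reported 0). Single probe sets kept their sign in each of 8 alternatives, and 21 of these values moved by more than 0.1. Signal over background limits what can be said of the 13 dim probe sets. No paired analysis was possible because each group has 1 array.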
